A study of Mus musculus with 6 samples.

Results

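The Kirrel and Icam genes encode adhesion molecules of the immunoglobulin superfamily, and the 7 mouse genes considered were Kirrel, Kirrel2, Kirrel3, Icam1, Icam2, Icam4 and Icam5. Members were the probe sets that the platform annotation gives to these genes alone. It named 9 such probe sets for 6 of the 7 genes, among 45037 probe sets and 18193 singly named genes on the array. Kirrel had 2 probe sets and Kirrel3 had 3, each of the 4 Icam genes had 1, and Kirrel2 was not analysed here. Kirrel3 and Icam5 were picked because earlier results of these arrays showed them lower in the mutant, and the whole group was thus selected on the cKO against WT difference in intensity. That difference is given below as a description and supports nothing by itself.

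The mutant arrays, labelled cKO, are 3 dorsal telencephalon samples of E14.5 embryos in which the histone methyltransferase ESET, encoded by Setdb1, was deleted with Emx2Cre. Emx2 is a gene of dorsal forebrain progenitors, and the dissected tissue also holds cells of other lineages, such as vessels. The WT arrays are 3 samples of wild type dorsal telencephalon of the same age. All 6 are labelled male and of a C57BL\6 background, and the sources used here do not say whether the WT embryos carried Cre. Both groups are read as separate embryos from the design text, with 250 ng of total RNA behind each array.

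Kirrel proteins, also called Neph proteins, span the membrane once and bind each other, or the related protein nephrin, between neighbouring cells. They are known from the kidney filtration slit, where Kirrel is required, and from the nervous system, where Kirrel2 and Kirrel3 sort olfactory axons and Kirrel3 helps hippocampal synapses to form. Icam proteins are best known as ligands of leukocyte integrins. Their settings differ, since Icam1 is induced on inflamed cells, Icam2 is carried by endothelium, Icam4 is a red cell surface protein, and Icam5, or telencephalin, marks the dendrites of telencephalic neurons.

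Icam1, Icam4 and Icam5 follow each other directly on mouse chromosome 9, and the 3 promoters are shown because values of the last 2 genes differed between genotypes while those of the first overlapped. The sequences are RefSeq's for build GRCm38.p6 and run 5′ to 3′ from 250 bases before to 50 after the start of the gene. Capitals mark GGGCGG, read as CCGCCC where it lies on the opposite strand, and TATAAA.
Icam1, chr9:21015690-21015989, + strand: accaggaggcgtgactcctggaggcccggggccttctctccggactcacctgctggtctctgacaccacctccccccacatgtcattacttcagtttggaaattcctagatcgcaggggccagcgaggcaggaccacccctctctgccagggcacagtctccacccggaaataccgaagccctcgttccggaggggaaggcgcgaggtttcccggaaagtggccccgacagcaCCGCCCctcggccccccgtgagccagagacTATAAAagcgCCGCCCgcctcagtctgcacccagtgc
Icam4, chr9:21029182-21029481, + strand: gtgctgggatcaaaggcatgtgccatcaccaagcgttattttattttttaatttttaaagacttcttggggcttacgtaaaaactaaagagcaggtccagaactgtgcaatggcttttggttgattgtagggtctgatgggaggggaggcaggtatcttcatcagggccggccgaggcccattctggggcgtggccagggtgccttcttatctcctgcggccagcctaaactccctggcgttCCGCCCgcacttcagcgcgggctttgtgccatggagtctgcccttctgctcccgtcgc
Icam5, chr9:21031788-21032087, + strand: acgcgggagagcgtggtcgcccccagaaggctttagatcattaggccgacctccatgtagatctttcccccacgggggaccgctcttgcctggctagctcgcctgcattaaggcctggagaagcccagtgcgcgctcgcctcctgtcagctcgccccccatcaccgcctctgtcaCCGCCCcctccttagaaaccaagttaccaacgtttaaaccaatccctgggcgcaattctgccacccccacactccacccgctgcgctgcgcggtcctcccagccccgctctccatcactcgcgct
The windows of Icam1, Icam4 and Icam5 hold 2, 1 and 1 matches to GGGCGG on either strand, and 35.7% of the 32851 promoters in the table hold at least 1. Only the Icam1 window of the 3 has TATAAA, which 13.6% of all promoters hold. This match begins 13 bases after the annotated start, and the Icam1 matches to GGGCGG begin 17 bases before and 23 after it. CANNTG is present in the Icam1 window 2 times and in the Icam4 window 1 time, against 72.3% of all promoters, and these matches do not overlap the capitals. The NF-kB consensus was searched only as GGGRNNYYCC, where R is A or G, Y is C or T and N is any base. This strict pattern, held by 8.46% of promoters, has 0 matches in each of the 3 windows. Sites that depart from it by a base were not searched for, so its absence does not show that a window lacks an NF-kB site. The windows hold 19, 13 and 23 CG pairs in the order Icam1, Icam4, Icam5, and the median promoter holds 7.0. These are descriptions of letters and do not show that a factor binds.

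Values are linear array intensities, and fold changes are differences of group means of log2(intensity + 16), cKO minus WT. The number 16 is a pseudocount that damps the noise of dim probe sets and makes their fold changes smaller. Median intensities were 98.7 to 119 on cKO arrays and 91.1 to 113 on WT arrays. The marker genes of dorsal telencephalon were bright in both groups, with summed intensities of 47655 to 57529 in cKO and 50377 to 54171 in WT over 9 measured genes. Of these, Eomes, a factor of intermediate progenitors, averaged 3126 ± 316 in cKO and 4820 ± 211 in WT (SD, n = 3 each) without overlap. Neurog2 went the other way without overlap, at 7395 ± 214 in cKO and 6767 ± 116 in WT (SD, n = 3 each). In this list 1 gene was thus lower and 1 higher without overlap, beside 7.64% and 7.9% of all genes. Its median log2 fold change was 0.07. Ventral telencephalon markers summed to 4197 to 4598 in cKO and 3413 to 4879 in WT. The highest WT sum was on WT 3, against 3625 on WT 1 and 3413 on WT 2. Of the 10, 3 (Gad1, Nkx2-1 and Lhx6) were higher in cKO without overlap and 0 lower, where 7.9% of all genes were higher and 7.64% lower. Dlx1, Dlx6 and Isl1 had log2 fold changes below 0, at -0.26, -0.48 and -0.50, with overlap. The part of Eomes, of Neurog2 or of the ventral markers in the values of the members was not tested. Setdb1 read 704, 696 and 499.9 in cKO and 1162, 1185 and 1033 in WT on its brightest probe set, which did not pass the threshold over all probe sets (limma adjusted p = 0.237). Emx2, the gene that gives the Cre line its name, read 674, 647 and 743 in cKO and 1197, 1129 and 1395 in WT without overlap, with a log2 fold change of -0.83 (SE 0.15, limma adjusted p = 0.142). Effects of the Cre allele and of the Setdb1 deletion cannot be told apart here. The arrays numbered 3 stood apart in both groups. The array labelled cKO 3 had an Xist intensity of 8811 on the brightest Xist probe set, against 39.5 and 34.1 on the other cKO arrays. The array labelled WT 3 had 17294 against 59.0 and 42.3, and both arrays are labelled male. Summed erythroid markers over 10 measured genes were 74581 on cKO 3 and 69768 on WT 3, and 11328 to 17264 on the other 4 arrays. These 2 arrays also differed from each other. Eif2s3y and Kdm5d, which lie on the Y chromosome, read 961 and 663 on cKO 3 and 22.2 and 10.2 on WT 3. The other 4 arrays read 1927 to 2186 for Eif2s3y and 909 to 1028 for Kdm5d. WT 3, with high Xist and low Y-linked values, does not bear out its male label. On cKO 3 both Xist and the Y-linked genes were read, so whether it holds 1 embryo cannot be told here. Summed markers of meninges and mesenchyme were 2248 on cKO 3, 689 on WT 3 and 331 to 622 on the other 4 arrays. Values with and without these arrays are therefore given for the members that differed.

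Of the 9 member probe sets, 5 had every cKO array below every WT array, 0 had every cKO array above, and 4 overlapped. Over all probe sets, 6.07% were lower and 7.47% higher in cKO without overlap. The 5 belong to 3 genes, namely Kirrel3, Icam4 and Icam5. The limma model over all probe sets called 3 of the 9 at an adjusted p under 0.05, 2 of Kirrel3 and that of Icam4, all lower in cKO, and 5 had an unadjusted p under 0.05, as 7.9% of all probe sets had. Of all probe sets it called 0.275%, with 101 higher (0.224%) and 23 lower (0.0511%), and 97 higher and 41 lower with the arrays centred on their medians. The median log2 fold change was -1.27 over the 9 probe sets and 0.02 over all probe sets. No weight is placed on these counts, since the contrast served to pick the group. They also rest on all 6 arrays, because in each of the 6 fits that left out 1 array (cKO 1, cKO 2, cKO 3, WT 1, WT 2 or WT 3) limma called 0 of the 9 (lowest adjusted p = 0.0747), while 5 kept an unadjusted p under 0.05. Without both arrays numbered 3 it also called 0, with 5 at an unadjusted p under 0.05.

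**Figure D1:**
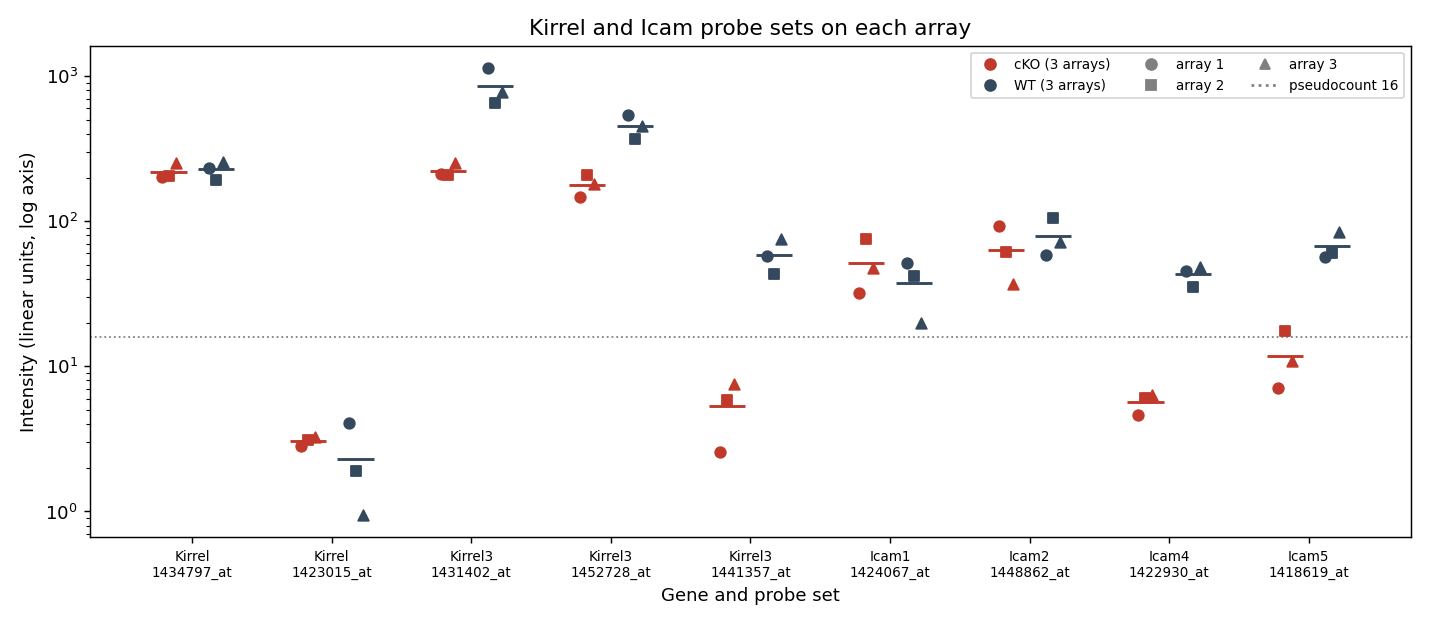
Intensity of the 9 Kirrel and Icam probe sets on each of 6 arrays (log axis), cKO left of WT, with bars at group means, symbols for the array number and a dotted line at the pseudocount. The 3 Kirrel3 probe sets and those of Icam4 and Icam5 have every cKO array below every WT array, and the other 4 overlap.

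Kirrel3, the synaptic member of the Kirrel family, was lower in cKO on each of its 3 probe sets. On the brightest, 1431402_at, intensities were 210, 208 and 250.4 in cKO and 1134, 652 and 781 in WT. The cKO arrays lay close together at 223 ± 23.7 (SD, n = 3) while WT arrays spread more widely at 856 ± 250 (SD, n = 3), with WT 1 the highest. The log2 fold change was -1.83 (SE 0.23). It came to -1.96 without both arrays numbered 3 and ran from -2.01 to -1.61 in the fits that left out 1 array.

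The second probe set of Kirrel3, 1452728_at, showed the same order of genotypes with a smaller difference. It read 147, 207 and 179 in cKO and 542, 369 and 452 in WT. WT 1 was again the highest and WT 2 the lowest of the WT arrays. The log2 fold change was -1.27 (SE 0.20), and -1.28 without both arrays numbered 3. The third, 1441357_at, was dim. It read 2.56, 5.86 and 7.54 in cKO and 57.3, 43.3 and 75.2 in WT. Every cKO value lay under the pseudocount. The log2 fold change of -1.79 (SE 0.20) depends on it in size, at -3.29 with a pseudocount of 1 and -0.82 with 64, and it was -1.71 without both arrays numbered 3. The 3 probe sets target the same gene and were read on the same arrays, so they are not independent measurements of the genotype difference.

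Kirrel, the kidney slit member of the family, had groups that overlapped on both probe sets. Its brighter probe set, 1434797_at, read 201, 204 and 250.4 in cKO and 234, 192 and 257 in WT. The array numbered 3 was the highest in each group and the WT range took in every cKO array. The log2 fold change was -0.05 (SE 0.17), and it was 0.031 without WT 3. The other probe set, 1423015_at, lay between 2.81 and 3.26 in cKO and between 0.95 and 4.05 in WT. Both groups were under the pseudocount there, so its fitted difference, which enters the median above and the plot of fold changes, has no interpretable size.

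Icam5, the neuronal member of the Icam family, read 7.05, 17.4 and 10.9 in cKO and 56.8, 60.6 and 84.4 in WT. The highest cKO array, cKO 2, lay well below the lowest WT array. Group means were 11.8 ± 5.26 in cKO and 67.3 ± 15.0 in WT (SD, n = 3 each). The log2 fold change was -1.59 (SE 0.21), and -1.43 without both arrays numbered 3. As 2 of the 3 cKO values are under the pseudocount, it came to -2.48 with a pseudocount of 1 and -0.79 with 64. It was past the threshold when genes rather than probe sets were fitted, where 0.627% of genes were called, and among probe sets only 1 of the alternatives run put it past, with the arrays centred on their medians (limma adjusted p = 0.0427).

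Icam4, the red cell member, had the same order of genotypes as its direct neighbour Icam5. It read 4.65, 6.09 and 6.37 in cKO and 45.7, 35.5 and 48.5 in WT. All cKO values were under the pseudocount and all WT values above it. Means were 5.70 ± 0.92 in cKO and 43.2 ± 6.84 in WT (SD, n = 3 each), with a log2 fold change of -1.44 (SE 0.15). The size of this difference shifts with the pseudocount, at -2.72 with 1 and -0.62 with 64, and it was -1.40 without both arrays numbered 3. On cKO 3 and WT 3, the arrays with the highest summed erythroid markers, Icam4 was also the highest of its group. It lay 0.07 (log2) above the other cKO arrays on cKO 3, where the pseudocount exceeds the values and makes such differences smaller, and 0.19 above the other WT arrays on WT 3. Of the 10 measured erythroid markers, 0 separated the genotypes in either direction, and their part in the value of Icam4 was not tested.

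Icam1, the inflammation-induced member, read 32.1, 76.1 and 47.8 in cKO and 51.2, 42.2 and 20.0 in WT. The highest array was cKO 2 and the lowest was WT 3, and the groups overlapped. The log2 fold change was 0.33 (SE 0.33), and 0.09 without both arrays numbered 3. Icam2, the endothelial member, read 92.6, 61.1 and 36.8 in cKO and 58.3, 106 and 72.5 in WT. These groups overlapped too, with a log2 fold change of -0.28 (SE 0.31) and -0.05 without both arrays numbered 3. Of 12 endothelial markers 6 were lower in cKO without overlap and 0 higher, where 7.64% of all genes were lower and 7.9% higher. Their summed intensity was 1914 to 2273 in cKO and 2493 to 2721 in WT. The part of these markers in the value of Icam2 was not tested. In whole tissue, fewer cells of a type and less RNA per cell cannot be told apart.

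**Figure D2:**
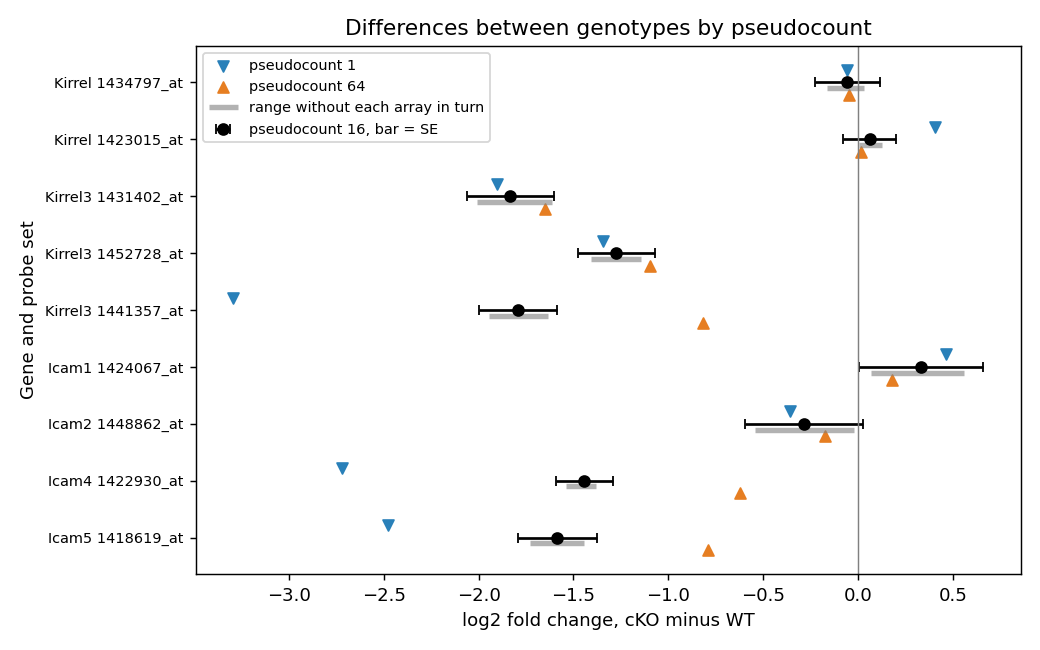
Log2 fold changes (cKO minus WT) of the 9 probe sets with a pseudocount of 16 and their SE, beside those with pseudocounts of 1 and 64, and grey bars for the range when each of 6 arrays is left out. The values of the dim probe sets Kirrel3 1441357_at, Icam4 and Icam5 spread widely with the pseudocount, and those of Kirrel3 1431402_at stay close together.

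Markers of postmitotic neurons, the cells known to carry Icam5, had summed intensities of 57981 to 62474 in cKO and 60411 to 69529 in WT over 10 measured genes. The ranges of these sums, in which the brightest genes weigh most, overlapped. The mean log2 value over the same genes did not overlap, at 11.51 to 11.75 in cKO and 11.79 to 11.94 in WT. Of the 10 genes, 2 were lower in cKO without overlap and 0 higher, beside the same 7.64% and 7.9% of all genes. Log2 fold changes were below 0 for 9 of these genes and above 0 for 1. Their median log2 fold change was -0.13, against 0.01 over all genes. Leukocyte and microglia markers, from cells known to carry Icam receptors, summed to 1394 to 1931 in cKO and 1685 to 1962 in WT, and 0 of 12 separated the genotypes. The part of either list in the values of the members was not tested.

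The neighbours on the chromosome were examined next, in the gene table, where each gene is represented by its brightest probe set. In the RefSeq gene table the measured genes around the Icam cluster stand in the order S1pr2, Mrpl4, Icam1, Icam4, Icam5, Zglp1 and Raver1. Mrpl4, a mitochondrial ribosome protein, read 1553, 1303 and 1363 in cKO and 1554, 1654 and 1542 in WT, with 1 cKO array within the WT range. Zglp1, a germ cell zinc finger factor, read 97.0, 44.2 and 44.3 in cKO and 131, 24.7 and 72.9 in WT, and the groups overlapped. Raver1, which acts in splicing, and S1pr2, a receptor for sphingosine 1-phosphate, overlapped as well. The log2 fold changes of these 4 genes were -0.17 (SE 0.13) for Mrpl4, -0.13 (SE 0.50) for Zglp1, -0.08 (SE 0.17) for Raver1 and 0.04 (SE 0.24) for S1pr2.

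**Figure D3:**
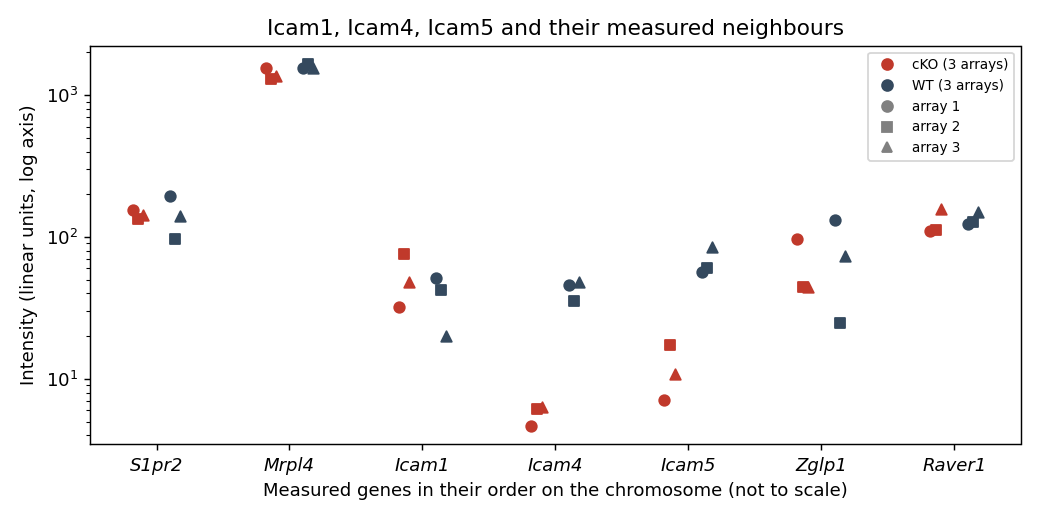
Intensity on each of 6 arrays (log axis) of the 7 measured genes at the Icam cluster, in chromosome order and not to scale, cKO left of WT. Icam4 and Icam5 have every cKO array below every WT array, and the other 5 genes overlap.

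Around all 7 members, 20 measured neighbours that are not members were found, and limma called 0 of them, with 2 at an unadjusted p under 0.05, as 9.56% of all genes had. Of these, 3 were lower in cKO without overlap and 0 higher, where 7.64% of all genes were lower and 7.9% higher without overlap. The 3 were Nfkbid, a regulator of NF-kB, and Aplp1, a relative of the amyloid precursor, with 2 and 0 genes between them and Kirrel2, and Ets1, with 8 genes between it and Kirrel3 in the RefSeq table, measured or not. Aplp1 turned to 0.25 when probe sets ending in _x_at or _s_at were left out and another represented it. Log2 fold changes of the 20 lay between -0.54 and 0.60. The transcription factor gene Ets1 was at -0.29 (SE 0.16), and the sialyltransferase gene St3gal4, with 3 genes between it and Kirrel3, was at 0.36 (SE 0.16) with overlap. Directly next to Kirrel3, 7630403G23Rik had every array under the pseudocount, and its groups overlapped. With 1 gene between it and Kirrel2, the nephrin gene Nphs1, which encodes the kidney partner of the Kirrel proteins, read 30.7, 70.8 and 51.1 in cKO and 38.1, 51.3 and 70.6 in WT. Nphs1 thus overlapped, with a log2 fold change of -0.07 (SE 0.28).

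Partners of the Kirrel proteins were taken from a list of 23 genes of the kidney slit and of junction and signalling complexes, of which 20 were measured. In it limma called 0 genes over the gene table, where 0.385% of all genes were called higher and 0.242% lower. An unadjusted p under 0.05 was reached by 2 genes, both higher in cKO, beside 9.56% of all genes in either direction. The median log2 fold change was -0.05. Trpc6, a calcium channel of the slit, read 44.8, 58.2 and 22.9 in cKO and 9.68, 3.64 and 4.15 in WT. All of its WT values were under the pseudocount, and its log2 fold change was 1.37 (SE 0.26, limma adjusted p = 0.113). Cd2ap, a slit adaptor, averaged 578 ± 44.9 in cKO and 458 ± 48.1 in WT (SD, n = 3 each), and its log2 fold change was 0.33 (SE 0.13). The polarity genes Pard6b and Prkcz were at 0.41 and -0.31 with overlap.

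Partners of the Icam proteins were 17 measured of 20 listed genes, for integrins, cytoskeletal linkers and proteases. Here too limma called 0, while 2 genes, both higher in cKO, had an unadjusted p under 0.05, beside 9.56% of all genes in either direction. The median log2 fold change was -0.02. Ezr, which encodes ezrin, a linker of membrane proteins to actin, averaged 4428 ± 562 in cKO and 3309 ± 127 in WT (SD, n = 3 each), with a log2 fold change of 0.41 (SE 0.14). Actn2, for an alpha-actinin, read 98.9, 104 and 119 in cKO and 78.2, 65.4 and 49.2 in WT, with a log2 fold change of 0.63 (SE 0.17). Itgb2, the beta chain of the leukocyte integrins that bind Icam proteins, read 25.6 to 37.0 in cKO and up to 30.9 in WT, on WT 3, with overlap. Mmp9, a protease known to cleave Icam5, was at -0.38 (SE 0.19) with overlap. The adjusted p of these 4 genes lay between 0.260 and 0.633 in limma.

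Genes of NF-kB signalling, the pathway known to raise Icam1, were 19 measured of 20 listed. Limma called 0 over the gene table, while 3 genes, all higher in cKO, had an unadjusted p under 0.05. Over all genes 9.56% had one in either direction. Without overlap 3 genes of the list were higher and 0 lower, where 7.9% of all genes were higher and 7.64% lower. Log2 fold changes were below 0 for 10 of the 19 and above 0 for 9, and 5 had both group means under the pseudocount. The median log2 fold change was -0.02. Tnfaip3, a feedback inhibitor of the pathway, read 375, 367 and 270.2 in cKO and 204, 137 and 131 in WT, without overlap. Its log2 fold change was 1.04 (SE 0.22, limma adjusted p = 0.139). Relb, an NF-kB subunit, averaged 84.4 ± 21.6 in cKO and 21.0 ± 14.8 in WT, and Nfkbie, an inhibitor, 161 ± 5.74 in cKO and 109 ± 13.3 in WT (SD, n = 3 each), both without overlap. Sele, for E-selectin, overlapped at a log2 fold change of 0.41.

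Other immunoglobulin-superfamily adhesion genes of neurons formed the last list, with 40 measured of 42. Limma called 1 higher and 1 lower over the gene table, where 0.385% and 0.242% of all genes were called. An unadjusted p under 0.05 was reached by 3 genes with higher and 5 with lower values in cKO, beside 9.56% of all genes. The median log2 fold change was -0.08, against 0.01 over all genes. Alcam, a homophilic adhesion molecule of growing axons, read 1315, 1235 and 1331 in cKO and 2308, 2502 and 2513 in WT. It fell, with a log2 fold change of -0.91 (SE 0.11, limma adjusted p = 0.0352). Cntn3, a contactin anchored to the membrane by a lipid, read 291, 363 and 247 in cKO and 84.3, 54.2 and 105 in WT. It rose, with a log2 fold change of 1.72 (SE 0.24, limma adjusted p = 0.0496). Both calls ended in each of the 6 fits that left out 1 array (cKO 1, cKO 2, cKO 3, WT 1, WT 2 or WT 3), where the lowest limma adjusted p was 0.0997 for Alcam and 0.0721 for Cntn3. Alcam then ran from -0.95 to -0.87 and Cntn3 from 1.503 to 1.90. The Cntn3 value rests on a probe set ending in _x_at, and without probe sets ending in _x_at or _s_at another represented it at 0.59 (limma adjusted p = 0.555). The call of Alcam also ended with the arrays centred on their medians (limma adjusted p = 0.0776).

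Next in that list by p were Mdga2 and Lsamp, both membrane-anchored proteins of neurons. Mdga2, which restrains synapse formation, read 77.3, 40.2 and 71.0 in cKO and 178, 206 and 237 in WT. Its log2 fold change was -1.52 (SE 0.23, limma adjusted p = 0.0565). Lsamp, the limbic system-associated protein, averaged 167 ± 24.7 in cKO and 364 ± 89.0 in WT (SD, n = 3 each), at -1.04 (SE 0.21, limma adjusted p = 0.127). On both genes every cKO array lay below every WT array, and neither passed the threshold with these settings. Under the 17 alternatives Mdga2 passed in 6 and Lsamp in 2, with lowest limma adjusted p of 0.0101 and 0.0339.

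**Figure D4:**
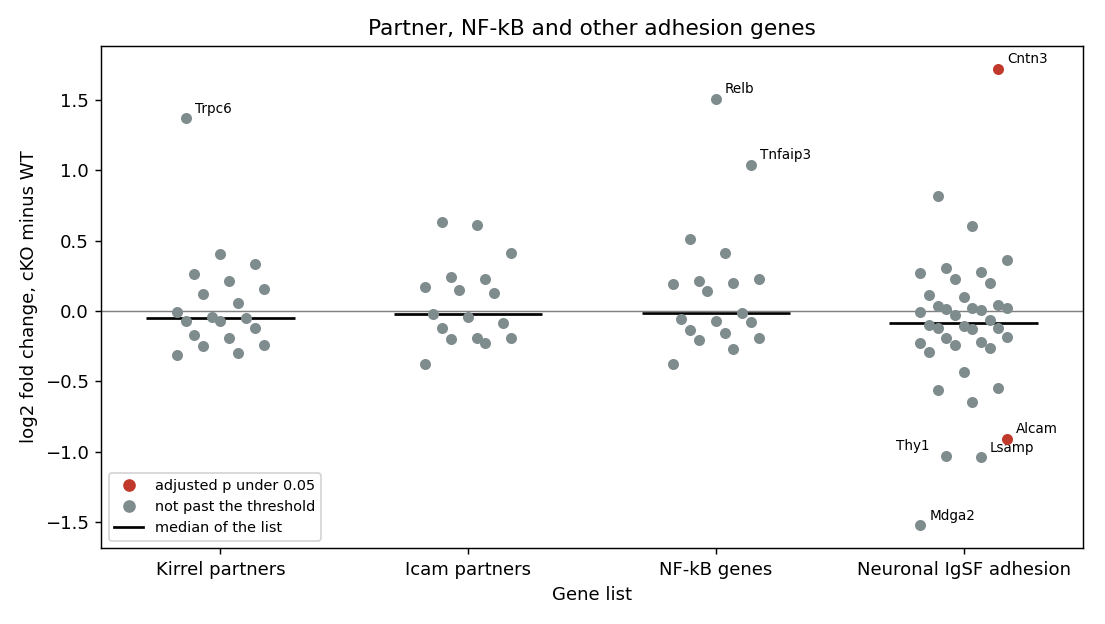
Log2 fold changes (cKO minus WT) of the measured genes of 4 lists, 1 point a gene, with a bar at each list's median and red points for a limma adjusted p under 0.05. Alcam and Cntn3 are the red points, and the medians lie between -0.08 and -0.02.

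Genes whose pattern over the 6 arrays was most like that of Kirrel3 or Icam5 were ranked by the root mean square difference of their centred log2 values, among genes brighter than the median gene. For Kirrel3 the closest was Pisd-ps3, a pseudogene, at 0.11 (log2). It read 1409, 1383 and 1989 in cKO and 7584, 4583 and 4671 in WT, with cKO 3 the highest cKO array and WT 1 the highest WT array, as for Kirrel3. The Pisd-ps3 value rests on a probe set ending in _x_at. Without probe sets ending in _x_at or _s_at another represented Pisd-ps3, at a log2 fold change of -1.11. Gnal, a G protein subunit of olfactory and striatal neurons, followed at 0.26, Grb14, an adaptor of the insulin receptor, at 0.27, Rbm24, an RNA-binding protein, at 0.28, and Bcl6, a repressor that promotes neurogenesis, at 0.31. For Icam5 the closest were Grb14 at 0.23, then Diras2, a small GTPase, Nr4a2, an orphan nuclear receptor, and Rbm24, each at 0.24, and Gnal at 0.28. Likeness to genes chosen for being lower in cKO selects genes that are lower in cKO, so their fold changes are not a result.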

How the data were processed

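Total RNA of 6 dorsal telencephalon samples was hybridized to single-colour Affymetrix arrays. The deposited values are intensities on a linear scale from the Affymetrix Expression Console, per the submitters' processing notes, 1 per probe set and array. Its version and the algorithm behind the summary values are not given here. The mean after trimming 2% of probe sets at each end was 497 to 498 on every array. The table holds no detection calls.

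Intensities were taken to log2(intensity + 16) with no further normalization. All 45037 probe sets were fitted on genotype alone in limma 3.58.1 (R 4.3.3). P-values were adjusted by Benjamini-Hochberg, and the threshold was 0.05. Neighbours and lists used the gene table of 18193 genes, each with its brightest singly named probe set, fitted and adjusted on its own. The annotation gives 1 gene to 34945 probe sets, several to 932 and none to 9160. All member symbols match the RefSeq table of GRCm38.p6 (0 updated).

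The text names all member probe sets, Setdb1, the 4 genes of each list with the smallest p, the nearest measured neighbours, and the 5 genes most like Kirrel3 and Icam5. Of the 20 neighbours, 10 are described by name and the others by count and range. Members and lists were chosen with earlier results of these data known. On simulated arrays for cKO against WT with 45037 probe sets, limma called 4% of 2-fold, 80% of 4-fold and 96% of 8-fold changes, with 1 false call. P-values set the genotype difference against the spread between arrays of the same group, and the number of arrays limits the precision. Samples sharing a replicate number had correlations of 0.08, 0.19 and 0.41 between their deviations from the group means, which is not above 0.1 in every pair, so the numbers were not taken as pairs. The alternatives were other normalizations, pseudocounts of 1 and 64, a filter on dim probe sets, other variance settings, array weights, blocks, and left-out arrays or probe sets.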

Additional observations from a re-analysis of the deposited data

How the results depend on the processing

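All 9 member probe sets kept their direction under every alternative in which they were fitted, except Kirrel 1434797_at, which ran from -0.16 without WT 2 to 0.031 without WT 3. Kirrel3, Icam4 and Icam5 were lower in cKO in each. The 3 calls among members came to 1 with a pseudocount of 1 (Icam4), to 0 with the replicate block, and to 0 without both arrays numbered 3. They came to 0 in each fit that left out 1 array (range 0 to 0), while 5 kept an unadjusted p under 0.05 in all of these fits. Members gained a call with centring on medians (Icam5, adjusted p = 0.0427, making 4), and Kirrel3 1452728_at passed with a pseudocount of 64 (0.0483), without probe sets below the median (0.0310) and with eBayes trend and robust settings (0.0259). The limma call of Icam4 ended with a pseudocount of 64 (adjusted p = 0.0636) and with eBayes trend and robust settings (0.0900), and that of Kirrel3 1431402_at with a pseudocount of 1 (0.107), with the arrays numbered 3 as a block (0.0950) and without _x_at and _s_at probe sets (0.0524). That of Kirrel3 1441357_at ended with pseudocounts of 1 (0.0874) and 64 (0.0556) and with eBayes trend and robust settings (0.0512). Without the arrays numbered 3 or with a single array left out, fewer samples were tested. Over all probe sets, 101 were called higher and 23 lower. The counts were 41 higher and 7 lower with a pseudocount of 1, 166 and 86 without probe sets below the median, 174 and 83 with eBayes trend and robust settings, 7 and 0 with the replicate block, and 8 and 0 without both arrays numbered 3. Lower calls alone moved to 41 with centring on medians, 56 with a pseudocount of 64 and 43 with array weights. Leaving out 1 array gave 19 to 34 higher and 0 to 2 lower. At an unadjusted p under 0.05, limma had 1950 lower with the replicate block and 1700 without the arrays numbered 3. Among the adhesion genes of neurons, lower calls were 1 (Alcam, or Mdga2 in its place with centring on medians), and 2 with quantile normalization, a pseudocount of 64 or array weights, 3 without probe sets below the median or with eBayes trend and robust settings, and 0 with a pseudocount of 1, the replicate block or without the arrays numbered 3. Higher calls were 1, and 0 with a pseudocount of 1, the replicate block, the arrays numbered 3 as a block, without both of them, or without _x_at and _s_at probe sets. Both were 0 in all fits that left out 1 array. In those fits 6 to 11 genes of the list had an unadjusted p under 0.05. NF-kB genes gave 1 higher call without probe sets below the median and with eBayes trend and robust settings. The causes of these shifts were not tested. The array values bear no detection call, so the dim Icam and Kirrel values cannot be set against a background.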

Other observations

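Of the 40 measured adhesion genes of neurons, 5 were lower and 5 higher in cKO without overlap, where 7.64% and 7.9% of all genes were, and 8 had an unadjusted p under 0.05 in limma, as 9.56% of all genes had. Besides Alcam, Cntn3, Mdga2 and Lsamp, the list held 6 genes whose groups did not overlap and which limma did not call at the adjusted threshold. They were picked out after their values were seen. Thy1, a surface glycoprotein of neurons, averaged 49.2 ± 24.3 in cKO and 112 ± 17.7 in WT, and Cntn1, a contactin of axons, 251 ± 34.5 in cKO and 403 ± 71.0 in WT (SD, n = 3 each). Higher in cKO without overlap were Igsf21, at 731 ± 173 in cKO and 412 ± 116 in WT, and Ncam2, an adhesion molecule of olfactory axons, at 109 ± 27.5 in cKO and 66.2 ± 15.2 in WT. Boc, a receptor component of hedgehog signalling, averaged 1163 ± 43.5 in cKO and 911 ± 170.2 in WT, and Igsf8 2310 ± 211 in cKO and 1912 ± 181 in WT.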
